A study of Mus musculus with 10 samples.

Results

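The TNF ligand and receptor superfamilies were followed in epithelial crypts of the mouse distal colon in inflammation-driven cancer, in inflammation and without treatment. The members were taken by symbol, as Tnf itself and the genes whose symbol begins with Tnfsf (ligands) or Tnfrsf (receptors) followed by a digit, apart from 1 receptor that is not analysed here. This gave 31 members, 12 ligands and 19 receptors, of 23364 genes in the deposited tables. Superfamily members that go by other symbols, such as Ltb, Cd40 or Fas, were counted apart.

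Ligands of the TNF superfamily are made mainly by immune cells as membrane proteins that assemble into trimers, and several are cut from the surface to act at a distance. Their receptors fall into those with a death domain, which can start apoptosis or inflammation, those that bind TRAF adaptors and turn on the transcription factor NF-kB, and decoys that bind ligand without passing a signal. In the colon, TNF from inflamed tissue drives colitis, and antibodies against it are used to treat inflammatory bowel disease.

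AOM+DSS comprised 3 libraries from mice that received azoxymethane, a carcinogen that alkylates DNA, and then dextran sulfate sodium, and the submitters describe it as cancer induced by inflammation. The DSS group held 4 libraries from mice that received dextran sulfate sodium, which injures the colon lining, and the control group held 3 libraries from mice with no treatment. The sources used here do not give strain, sex, age, doses, treatment times or the number of mice per library. Nothing in the labels ties each library to a mouse of its own, so the p-values reflect the spread among these samples, part of which may be technical. Crypts were shaken off the minced tissue in EDTA without a sort, so cells beneath the epithelium can be present.

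The deposited tables give a mean of normalized reads for each group, and the digits of these means were resolved into the whole reads behind them. Within a group the libraries are lettered from the deepest down, since the tables do not show which labelled replicate each one is. Recovered reads numbered 15593282 to 22743748 per AOM+DSS library, 4517651 to 9022301 per DSS library and 14764413 to 16429777 per control library. The DSS values cover 90.7% of genes but 36% of the group's mean total, because highly expressed genes could not be resolved among 4 libraries. Among the members this affected Tnfrsf1b and Tnfrsf11a, which have a group mean in DSS and no value per library. The epithelial keratin Krt8 averaged 57412 normalized reads in AOM+DSS and 73034 in DSS, against 69346 in control in the authors' deposited table. Of 12 epithelial markers, 0 were called in either comparison, with median log2 folds of 0.01 in AOM+DSS and 0.10 in DSS. The 1 marker with a value in every library, Lgals4, was lower in the treated libraries. It had 100.4 to 121.5 normalized reads in AOM+DSS, 113.2 to 141.7 in DSS and 150.1 to 188.3 in control.

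Promoter sequences from RefSeq, build GRCm38.p6, were found for 24 of the 31 members, and 4 are shown as examples of called members whose promoters carry one or more of the 3 motifs searched. Each line gives the 250 bases before an annotated start, with capitals for a match on either strand to the kappaB consensus bound by NF-kB, to TATAAA, the TATA box, or to TGANTCA, which AP-1 binds. The Tnf sequence lies at chr17:35202008-35202257 on the minus strand, that of Tnfrsf8 at chr4:145315165-145315414 on the minus strand, that of the second annotated start of Tnfrsf9 at chr4:150927749-150927998 on the plus strand, and that of the second start of Tnfsf13b at chr8:10006383-10006632 on the plus strand.
Tnf: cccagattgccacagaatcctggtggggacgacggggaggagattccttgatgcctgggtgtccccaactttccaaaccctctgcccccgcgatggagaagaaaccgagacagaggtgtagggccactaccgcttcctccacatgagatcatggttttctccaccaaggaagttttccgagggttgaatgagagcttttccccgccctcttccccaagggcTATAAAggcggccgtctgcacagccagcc
Tnfrsf8: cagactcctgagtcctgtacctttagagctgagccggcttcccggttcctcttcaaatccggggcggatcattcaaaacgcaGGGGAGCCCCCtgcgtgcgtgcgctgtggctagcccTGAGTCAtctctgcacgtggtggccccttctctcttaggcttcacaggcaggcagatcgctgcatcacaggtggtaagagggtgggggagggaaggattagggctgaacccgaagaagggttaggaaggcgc
Tnfrsf9: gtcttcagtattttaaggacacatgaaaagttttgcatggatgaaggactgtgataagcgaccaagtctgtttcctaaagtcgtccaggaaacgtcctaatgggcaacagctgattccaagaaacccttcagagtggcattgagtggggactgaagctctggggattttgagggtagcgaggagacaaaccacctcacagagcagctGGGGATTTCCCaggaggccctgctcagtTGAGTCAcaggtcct
Tnfsf13b: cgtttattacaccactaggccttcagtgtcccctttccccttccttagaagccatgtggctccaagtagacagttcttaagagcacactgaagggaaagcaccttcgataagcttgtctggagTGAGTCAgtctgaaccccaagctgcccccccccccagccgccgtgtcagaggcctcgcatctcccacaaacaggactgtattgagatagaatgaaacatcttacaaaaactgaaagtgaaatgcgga
The kappaB consensus was present in the promoters of 3 members (Tnfrsf8, Tnfrsf9 and Tnfrsf25), which is 11.1% of the 27 promoters listed for members, against 7.25% of the 32851 promoters in the table. TATAAA was present in 5 of the 27 (18.5%), against 12.4% of all promoters, and TGANTCA in 5 of the 27 (18.5%), against 6.75% of all promoters. In the sequences shown, different motifs did not overlap, and each kappaB stretch in capitals consists of overlapping matches to the 10-letter consensus, counted once. In Tnf, the TATAAA capitals stand near the start and the 250 bases hold no match to the other motifs. These matches describe letters in a window, not binding.

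In AOM+DSS, 11 of the 31 members were higher than in control and 0 were lower. They comprised 4 ligands (Tnf, Tnfsf9, Tnfsf10 and Tnfsf13b) and 7 receptors (Tnfrsf1a, Tnfrsf1b, Tnfrsf8, Tnfrsf9, Tnfrsf11b, Tnfrsf12a and Tnfrsf23). A gene is called here when its adjusted p in the authors' DESeq comparison is under 0.05. Over all 18334 genes tested, 5.54% were called higher and 3.35% were called lower. In DSS, 6 of the 31 members were higher than in control and 0 were lower, against a background of 2.61% higher and 1.78% lower among 18099 genes. These 6 (Tnf, Tnfsf13b, Tnfrsf1b, Tnfrsf8, Tnfrsf11b and Tnfrsf12a) were all among the 11 called in AOM+DSS, and both comparisons share the control libraries.

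The median log2 fold change over control was 1.38 for the 30 members with a finite value in AOM+DSS and 0.89 in DSS in the authors' deposited tables, against 0.02 over all genes in both. Without regard to a test, every AOM+DSS library lay above every control library for 15 of 31 members and below for 1, while 20.8% and 17.7% of all genes did so. Every DSS library lay above every control library for 9 of 29 members, against 9.4% of all genes, and below for 0, against 10.6%. By the GRCm38 annotation, chromosome 4 carries 9 of the members, and 3 of these (Tnfrsf1b, Tnfrsf8 and Tnfrsf9) were called in AOM+DSS; chromosome 17 carries 5, of which 3 (Tnf, Tnfsf9 and Tnfrsf12a) were called. The other 5 called members lie on chromosomes 3 (Tnfsf10), 6 (Tnfrsf1a), 7 (Tnfrsf23), 8 (Tnfsf13b) and 15 (Tnfrsf11b). Because these are bulk samples, a higher value can stand for more cells of a type or for more RNA per cell, and these cannot be told apart.

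**Figure D1:**
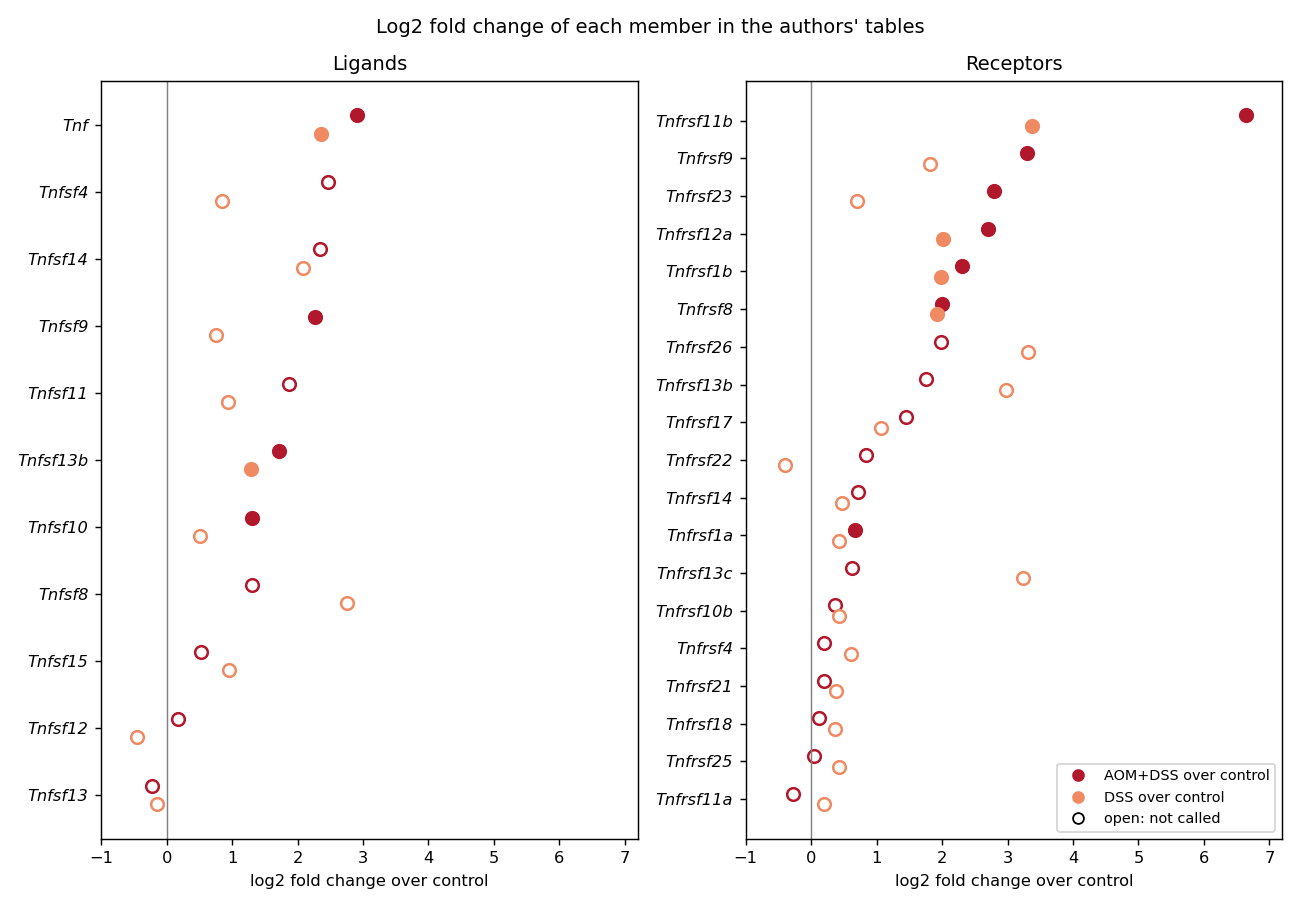
Log2 fold change of each member over control in the authors' deposited tables (x axis, log2 of the ratio of group means), ligands left and receptors right, ordered by AOM+DSS. Dark red points are AOM+DSS over control and orange points DSS over control, filled where called. Tnfsf18 is left out because its control mean is 0. The 11 filled dark red points all lie right of 0, with Tnfrsf11b highest at 6.64.

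Tnf, the founding ligand and the main inflammatory cytokine of the family, was higher in both treatments. It stood at 717, 826 and 412 normalized reads in the AOM+DSS libraries (a to c), at 413, 459, 411 and 496 in DSS libraries a to d, and at 80.1, 91.8 and 87.9 in control libraries a to c. The treated libraries did not overlap with the controls in either comparison, and the AOM+DSS library c lay within the range of the DSS libraries. The authors' deposited tables give a 7.52-fold higher mean in AOM+DSS (DESeq adjusted p = 3.44e-12) and a 5.13-fold higher mean in DSS (DESeq adjusted p = 2.68e-08). With limma on the recovered reads the log2 difference was 2.84 (SE 0.26) for AOM+DSS over control and 2.34 (SE 0.16) for DSS over control, and no single library removed either call.

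Of the receptors for TNF, Tnfrsf1b rose in both treatments and Tnfrsf1a in AOM+DSS. Tnfrsf1b encodes TNFR2, which lacks a death domain, recruits TRAF2 and prefers membrane-bound TNF. It had 3823, 4448 and 2264 normalized reads in AOM+DSS, a mean of 2792 in DSS in the authors' deposited table, and 619, 830 and 679 normalized reads in control. The lowest AOM+DSS library was above the highest control. In the authors' deposited tables the fold was 4.95 in AOM+DSS (DESeq adjusted p = 4.11e-06) and 3.94 in DSS (DESeq adjusted p = 9.40e-05).

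Tnfrsf1a encodes TNFR1, the death-domain receptor found on most cells. It had 2185, 2918 and 1990 normalized reads in AOM+DSS, 1787, 2052, 1898 and 2226 in DSS, and 1449, 1737 and 1283 in control. The AOM+DSS libraries lay above the controls by a smaller factor than for Tnfrsf1b, with a fold of 1.59 against control in the authors' deposited table (DESeq adjusted p = 0.0284). In DSS the fold in the authors' deposited table was 1.34 (DESeq adjusted p = 0.402), although no DSS library overlapped with a control. The AOM+DSS call was lost with limma without control library a (adjusted p = 0.137), without control library c (0.138), without AOM+DSS library a (0.0981) and without AOM+DSS library b (0.0903). Per kilobase of transcript, mean levels of Tnfrsf1b were 920 in AOM+DSS, 731 in DSS and 186 in control, and those of Tnfrsf1a were 1097, 923 and 691 in the same groups.

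**Figure D2:**
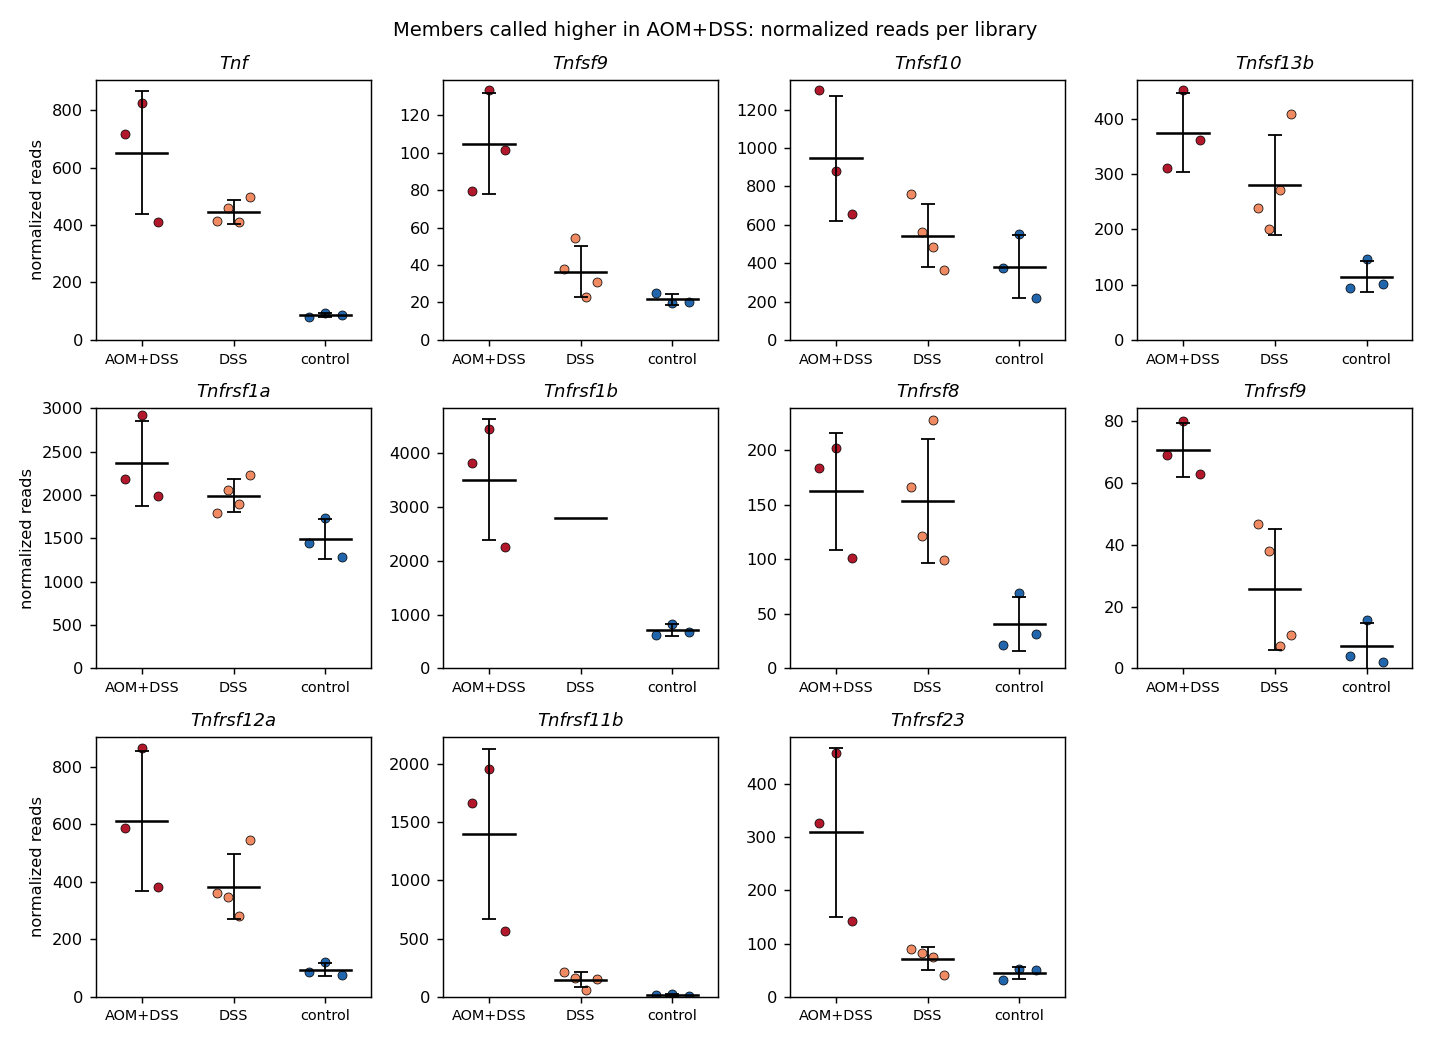
Normalized reads (y axis) of the 11 members called higher in AOM+DSS, for AOM+DSS, DSS and control from left to right. Points are libraries, horizontal lines group means and bars 1 SD, cut at 0 for Tnfrsf9 in control; Tnfrsf1b has a DSS mean only. AOM+DSS library c, the right-hand red point, is the lowest AOM+DSS library for 9 of the 11.

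The costimulatory pair 4-1BB ligand and 4-1BB was higher in AOM+DSS on both sides. Tnfsf9, the ligand, is made by activated antigen-presenting cells and had 79.6, 133 and 102 normalized reads in AOM+DSS, 37.9, 54.4, 22.7 and 31.0 in DSS, and 25.1, 19.8 and 20.1 in control. Each AOM+DSS library exceeded every DSS and control library, while DSS overlapped with control. The fold over control in the authors' deposited tables was 4.84 in AOM+DSS (DESeq adjusted p = 0.0012) and 1.69 in DSS (DESeq adjusted p = 0.556). The log2 fold for AOM+DSS was 2.27 by the authors' deposited table and 1.86 with 10 added to both means.

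Tnfrsf9, the receptor on activated T cells and NK cells, had 69.2, 80.2 and 63.0 normalized reads in AOM+DSS, 46.6, 37.9, 7.08 and 10.9 in DSS, and 3.86, 15.8 and 2.12 in control. The AOM+DSS libraries again stood above all others, and among the DSS libraries a and b were high and c and d low. The log2 fold in the authors' deposited tables was 3.29 in AOM+DSS (DESeq adjusted p = 0.000194) and 1.82 in DSS (DESeq adjusted p = 0.0617). In DSS it passed the threshold when genes with a mean under 10 were left out of the adjustment. The AOM+DSS call was lost with limma without control library a (adjusted p = 0.0705), control library c (0.0529) or AOM+DSS library a (0.0623). With 10 added to both means the log2 fold was 2.23 in AOM+DSS and 1.05 in DSS, and without control library b the limma log2 fold in AOM+DSS was 4.20, against 3.49 with all libraries. The annotation places Tnfrsf9 across from Camta1, and Tnfsf9 across from the non-coding Gm11110, on the opposite strand, by whole gene spans with introns included. Tnfrsf23 likewise lies across from E230032D23Rik, and Tnfsf13b across from Gm44789, neither of which has a row in the deposited tables. The kit does not mark strand, so reads from any stretch in exons of both partners cannot be told apart. Overlap of exons was not examined.

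Tnfrsf8, which encodes CD30, a receptor of activated lymphocytes that signals through TRAF proteins, rose in both treatments. It had 184, 202 and 102 normalized reads in AOM+DSS, 167, 121, 228 and 99.3 in DSS, and 21.2, 69.1 and 31.8 in control. No treated library overlapped with a control, although control library b stood above the other controls. The authors' deposited tables give folds of 3.99 in AOM+DSS (DESeq adjusted p = 0.00136) and 3.78 in DSS (DESeq adjusted p = 0.00408). With limma, the AOM+DSS call was lost without control library a (adjusted p = 0.102), control library c (0.101), AOM+DSS library a (0.106) or AOM+DSS library b (0.0881). The DSS call was lost without control library a (adjusted p = 0.161), control library c (0.157) or DSS library a (0.0626), b (0.0633) or c (0.0675). Tnfsf8, its ligand, was called in neither treatment, with means of 6.49 normalized reads in AOM+DSS, 17.8 in DSS and 2.64 in control.

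Tnfrsf12a encodes Fn14, a small receptor induced in injured and growing epithelium, and it rose in both treatments. It had 586, 865 and 383 normalized reads in AOM+DSS, 360, 346, 280 and 544 in DSS, and 85.9, 119 and 77.3 in control. The lowest treated library held more than the highest control, and the 2 treated groups overlapped. The fold over control in the authors' deposited tables was 6.49 in AOM+DSS (DESeq adjusted p = 1.24e-05) and 4.06 in DSS (DESeq adjusted p = 0.00338), and no single library removed either call in limma. Its ligand TWEAK, encoded by Tnfsf12, was low and called in neither treatment, with means of 24.9 normalized reads in AOM+DSS, 16.1 in DSS and 21.9 in control. In the annotation, Tnfsf12 shares 46.8% of its 50-base stretches with the read-through transcript Tnfsfm13, which also spans Tnfsf13, so its reads are uncertain.

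Tnfrsf11b had the highest fold of the family. It encodes osteoprotegerin, a secreted decoy that binds RANK ligand and TRAIL. It had 1666, 1952 and 568 normalized reads in AOM+DSS, 212, 159, 59.5 and 152 in DSS, and 11.6, 20.7 and 9.53 in control. The 3 groups did not overlap with each other: the lowest AOM+DSS library exceeded the highest DSS library, and the lowest DSS library exceeded the highest control. The log2 fold over control in the authors' deposited tables was 6.64 in AOM+DSS (DESeq adjusted p = 9.98e-06) and 3.38 in DSS (DESeq adjusted p = 0.0372). With 10 added to both means the log2 fold was 5.87 in AOM+DSS and 2.70 in DSS. With limma, the AOM+DSS call held without any single library (log2 6.10 to 6.99), and the DSS call was lost without control library a (adjusted p = 0.0634) or c (0.0581).

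Tnfrsf11a encodes RANK, the receptor for RANK ligand, and it was among the most abundant members. It had 2191, 1548 and 2350 normalized reads in AOM+DSS, a mean of 2820 in DSS in the authors' deposited table, and 2395, 2364 and 2654 normalized reads in control. It was the 1 member whose AOM+DSS libraries all lay below the controls, with a log2 fold of -0.28 in the authors' deposited table (DESeq adjusted p = 0.548). Tnfsf11, which encodes RANK ligand, was sparse, with 8.92 to 19.9 normalized reads in AOM+DSS, 0 to 20.5 in DSS and 0 to 12.8 in control. It was called in neither treatment by the authors, whose deposited table gives a fold of 3.66 for AOM+DSS (DESeq adjusted p = 0.527), and limma called it in AOM+DSS without control library b.

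Tnfsf10 encodes TRAIL, a ligand that can trigger apoptosis, and it was higher in AOM+DSS. It had 1302, 880 and 657 normalized reads in AOM+DSS, 758, 563, 486 and 364 in DSS, and 377, 550 and 220 in control. Each AOM+DSS library exceeded every control, and DSS overlapped with both other groups. The fold over control in the authors' deposited tables was 2.48 in AOM+DSS (DESeq adjusted p = 0.0309) and 1.42 in DSS (DESeq adjusted p = 0.657). The AOM+DSS call was lost with limma without control library a (adjusted p = 0.127), control library c (0.118), AOM+DSS library a (0.133) or AOM+DSS library b (0.0983).

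The death receptor for TRAIL in the mouse, encoded by Tnfrsf10b, was called in neither treatment, with 306 to 345 normalized reads in AOM+DSS, 309 to 379 in DSS and 213 to 325 in control. Tnfrsf23, a mouse decoy receptor for TRAIL, was higher in AOM+DSS. It had 326, 457 and 142 normalized reads in AOM+DSS, 89.3, 81.6, 75.0 and 41.9 in DSS, and 30.9, 52.3 and 49.8 in control. The AOM+DSS libraries lay above all others, and DSS overlapped with control. The log2 fold over control in the authors' deposited tables was 2.80 in AOM+DSS (DESeq adjusted p = 0.00957) and 0.70 in DSS (DESeq adjusted p = 0.845), and the AOM+DSS call was lost with limma without control library a (adjusted p = 0.0564) or AOM+DSS library a (0.0559).

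Tnfrsf22, the other mouse decoy for TRAIL, lies beside Tnfrsf23 on chromosome 7 and was called in neither treatment, with means of 30.6 normalized reads in AOM+DSS, 13.0 in DSS and 17.1 in control. The genes are close copies: 18% of the 50-base stretches of Tnfrsf23 and 27.4% of those of Tnfrsf22 occur in another gene, and 719 are common to both. The sources used here do not say how the authors counted reads that match both, so their separate values are uncertain.

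Tnfsf13b encodes BAFF, the survival factor of B cells, and it rose in both treatments. It had 311, 452 and 362 normalized reads in AOM+DSS, 239, 201, 272 and 408 in DSS, and 94.6, 147 and 102 in control. No treated library overlapped with a control, and the treated groups overlapped with each other. The fold over control in the authors' deposited tables was 3.28 in AOM+DSS (DESeq adjusted p = 3.50e-05) and 2.45 in DSS (DESeq adjusted p = 0.01). No single library removed the AOM+DSS call in limma, and the DSS call was lost without control library a (adjusted p = 0.165), control library c (0.151), DSS library c (0.0597) or DSS library d (0.0608).

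The receptor for BAFF on B cells, encoded by Tnfrsf13c, was called in DSS by limma and not by the authors. It had 29.7, 13.2 and 64.1 normalized reads in AOM+DSS, 538, 149, 96.3 and 94.6 in DSS, and 8.69, 53.3 and 7.41 in control. Each DSS library exceeded every AOM+DSS and control library, and DSS library a stood far above the others. The log2 fold of DSS over control was 3.24 in the authors' deposited table (DESeq adjusted p = 0.416) and 3.33 in limma (SE 0.79, adjusted p = 0.0437), which called 2.91% of all genes higher in DSS, and limma kept this call in 1 of 7 fits with a library left out, without control library b (log2 2.77 to 4.20 over these fits). The log2 fold of AOM+DSS over control was 0.62 in the authors' deposited table (DESeq adjusted p = 1).

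Markers of B and plasma cells with a value in every library followed the same libraries as Tnfrsf13c. These 8 of 9 markers summed to 582, 332 and 1065 normalized reads in AOM+DSS libraries a to c, to 11239, 3608, 2447 and 2542 in DSS libraries a to d, and to 230, 1101 and 152 in control libraries a to c. The sums leave out Igj, whose mean in AOM+DSS was above the sum of any AOM+DSS library. Igj averaged 2410 normalized reads in AOM+DSS and 749.5 in control in the authors' deposited table (DESeq adjusted p = 0.564). DSS library a was highest in DSS, AOM+DSS library c highest in AOM+DSS and control library b highest in control, for the marker sum and for Tnfrsf13c alike. Of the 9 markers, 0 were called in AOM+DSS, and Pax5, a B cell transcription factor, was called in DSS in the authors' deposited table. The part of these cells in the Tnfrsf13c result was not tested. The other BAFF receptors, Tnfrsf13b and Tnfrsf17, which mark later B cells and plasma cells, had group means of 2.22 and 6.27 normalized reads in AOM+DSS, 5.15 and 4.80 in DSS, and 0.658 and 2.30 in control.

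**Figure D3:**
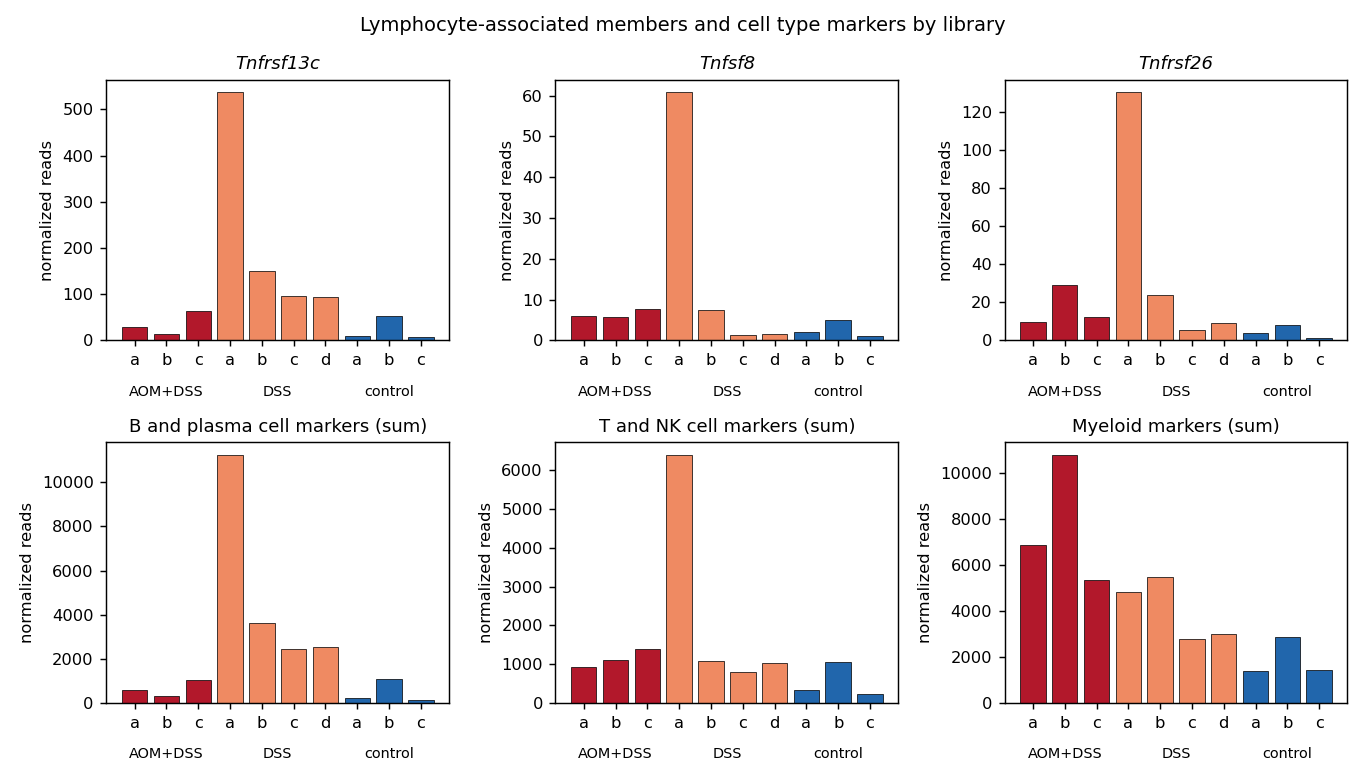
Normalized reads per library (y axis) of Tnfrsf13c, Tnfsf8 and Tnfrsf26, and sums of B and plasma cell, T and NK cell and myeloid markers, for AOM+DSS, DSS and control libraries from left to right. DSS library a is highest in each of the 3 member panels and in both lymphocyte sums, at 538 for Tnfrsf13c and 11239 for B and plasma cell markers.

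DSS library a was also far above the other DSS libraries for Tnfsf8, the ligand of CD30, and for Tnfrsf26, a receptor beside Tnfrsf22 and Tnfrsf23. Tnfsf8 had 60.9 normalized reads there, against 7.42, 1.42 and 1.55 in DSS libraries b to d. Tnfrsf26 had 130 there, against 23.9, 5.66 and 9.31. T and NK cell markers, 14 of 14 with a value in every library, summed to 931 to 1395 normalized reads in AOM+DSS, 6395 in DSS library a and 807 to 1080 in the other DSS libraries, and 234 to 1058 in control. Of these markers, 2 of 14 (Gzma and Gzmb) were called higher in AOM+DSS and 1 of 14 (Gzmb) in DSS in the authors' deposited tables. Their part in these values was not tested.

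Myeloid markers were set beside the called members. All 12 had a value in every library and summed to 6864, 10799 and 5332 normalized reads in AOM+DSS libraries a to c, 4847, 5464, 2770 and 2986 in DSS libraries a to d, and 1413, 2859 and 1428 in control libraries a to c. Cd14 alone averaged 2957 normalized reads in AOM+DSS, 2326 in DSS and 1235 in control, a large part of these sums. In the authors' deposited tables, myeloid markers numbering 8 of 12 were called higher in AOM+DSS, among them the macrophage marker Emr1 (log2 3.69) and the endotoxin co-receptor Cd14 (log2 1.26), and 3 of 12 in DSS. Of the 11 called members, 10 were highest in AOM+DSS library b, which also had the highest myeloid sum, and 10 were highest among controls in control library b, likewise the control with the highest sum. Control library b was also the highest control in the sums of B and plasma cell, T and NK cell, fibroblast, smooth muscle and endothelial markers. The part of these cells in the members' results was not tested. In DSS the order was mixed. Of the called members with a value per DSS library, 5 were lowest in library c, which had the lowest myeloid sum. Lowest in library d were 3, in library a 1 and in library b 1. Library a, with the second highest myeloid sum, was the highest for 4 called members. Library d, with the second lowest sum, was the highest for 4, Tnf among them, and library c for 1. DSS library b, with the highest myeloid sum in DSS, was the highest DSS library for 1 called member, Tnfsf9.

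The 8 smooth muscle markers summed to 14184 normalized reads in AOM+DSS library c, against 1408 and 1358 in the other AOM+DSS libraries, 1168 to 1840 in DSS and 855 to 2483 in control, and it was the lowest AOM+DSS library for 9 of the 11 called members. Limma called the same 11 members in AOM+DSS with all libraries, when 10.8% of all genes were called higher, and without this library. In either direction, limma called 17.3% of all genes with all libraries and 23.9% without AOM+DSS library c. Of the 8 smooth muscle and the 8 endothelial markers 0 were called in either comparison, and of the 10 fibroblast markers Pdgfrb was called lower in both in the authors' deposited tables. Median log2 folds of the smooth muscle markers were 3.43 in AOM+DSS and -2.04 in DSS, and those of the fibroblast markers 0.96 and -1.72. Mylk alone averaged 1240 normalized reads in DSS and 919.5 in control, a large part of the smooth muscle sums there. The fibroblast markers summed to 3550 in AOM+DSS library c and 1950 in control library b, against 269 to 650 in all others. Without control library b, limma called 15 members in AOM+DSS, the 11 plus Tnfrsf10b, Tnfrsf26, Tnfsf11 and Tnfsf14. The share called over all genes was also higher in that fit, at 23.6%, against 17.3% with all libraries.

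The remaining 20 members, 8 ligands and 12 receptors, were called in neither of the authors' comparisons. At an unadjusted p under 0.05, 1 of them (Tnfsf14) was higher in AOM+DSS and 2 (Tnfsf14 and Tnfsf15) were higher in DSS, where 11.1% and 7.76% of all genes passed as higher. Their log2 folds over control were above 0 for 18 of 20 in AOM+DSS, with a further 2 below, and for 17 of 20 in DSS, with 3 below, counting Tnfsf18, whose control libraries are at 0, as above. Over all genes, 51.5% were above 0 in AOM+DSS and 51.8% in DSS. Beside Tnfrsf11a, the most abundant was Tnfrsf21, the death receptor DR6, with 1742 to 1827 normalized reads in AOM+DSS, 1599 to 2302 in DSS and 1472 to 1662 in control. Every AOM+DSS library exceeded the controls, and the log2 fold in the authors' deposited tables was 0.19 in AOM+DSS (DESeq adjusted p = 0.84) and 0.38 in DSS (DESeq adjusted p = 0.391).

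Tnfsf15 encodes TL1A, a ligand that costimulates T cells and is linked to inflammatory bowel disease by genetic studies in humans. It had 98.4 to 153 normalized reads in AOM+DSS, 215, 233, 140 and 121 in DSS, and 74.3, 96.8 and 105 in control. The DSS libraries lay above all controls, with a fold of 1.93 in the authors' deposited table that missed the threshold (DESeq adjusted p = 0.0527). Tnfsf15 passed the threshold in DSS when genes with a mean under 10 were left out of the adjustment. Its receptor, encoded by Tnfrsf25, had 43.8 to 77.3 normalized reads in AOM+DSS, 36.2 to 109 in DSS and 38.6 to 71.0 in control. Tnfsf14 encodes LIGHT, which binds HVEM and the lymphotoxin beta receptor, and had 15.5 to 28.1 normalized reads in AOM+DSS, 1.55 to 40.4 in DSS and 0 to 11.8 in control. HVEM itself, encoded by Tnfrsf14, had means of 160 normalized reads in AOM+DSS, 135 in DSS and 97.6 in control.

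The T cell costimulators Tnfrsf4 (OX40) and Tnfrsf18 (GITR) were low and called in neither treatment. Tnfrsf4 had means of 38.9 normalized reads in AOM+DSS, 51.7 in DSS and 33.8 in control, and Tnfrsf18 had 55.3 in AOM+DSS, 65.2 in DSS and 50.8 in control. Their ligands were near the limit of detection: Tnfsf4 had 0 to 2.97 normalized reads in AOM+DSS, 0 to 2.37 in DSS and 0 to 0.988 in control, and Tnfsf18 had at most 2.21 in AOM+DSS, 0.790 in DSS and 0 in control, so no fold is given for it. Tnfsf13, which encodes APRIL, a ligand of B and plasma cells, had means of 155 normalized reads in AOM+DSS, 164 in DSS and 182 in control, and 57.3% of its 50-base stretches are shared with Tnfsfm13. Means were under 10 in every group for 4 members, Tnfrsf13b, Tnfrsf17, Tnfsf4 and Tnfsf18.

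The AOM+DSS and DSS groups share no library, and limma on the recovered reads compared them for the 29 members with a value in each library. Tnfrsf11b was the 1 member called, higher in AOM+DSS by 3.20 on the log2 scale (SE 0.51, adjusted p = 0.0156), while 2.18% of 16213 genes were called higher and 0.0802% were called lower. Of the 29 members, 6 had an unadjusted p under 0.05, as did 13.4% of all genes. Tnfrsf23, higher in AOM+DSS by 1.99 (SE 0.42), missed the threshold at an adjusted p of 0.0504, and passed it with size factors computed again (0.0489) and without AOM+DSS library c (0.0134). Tnfsf9 was higher in AOM+DSS by 1.53 (SE 0.38, limma adjusted p = 0.0853), Tnfrsf9 by 1.80 (SE 0.64, limma adjusted p = 0.257) and Tnfsf10 by 0.79 (SE 0.29, limma adjusted p = 0.257), and Tnfrsf13c had a log2 difference of -2.44 (SE 0.69, limma adjusted p = 0.137).

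The Tnfrsf11b call was lost without AOM+DSS library a (limma adjusted p = 0.0946) or b (0.0967), and the difference stayed between 2.82 and 3.76 on the log2 scale in the 7 fits with a library left out. Tnf differed by 0.49 (SE 0.23, limma adjusted p = 0.404) and was called without AOM+DSS library c (0.79, limma adjusted p = 0.0383). Tnfrsf12a differed by 0.64 (SE 0.30), Tnfsf13b by 0.46 (SE 0.25) and Tnfrsf8 by 0.09 (SE 0.35). No AOM+DSS library overlapped with a DSS library for 4 members that were higher (Tnfrsf11b, Tnfrsf23, Tnfrsf9 and Tnfsf9), against 8.67% of all genes, and for 1 that was lower (Tnfrsf13c), against 3.44%.

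**Figure D4:**
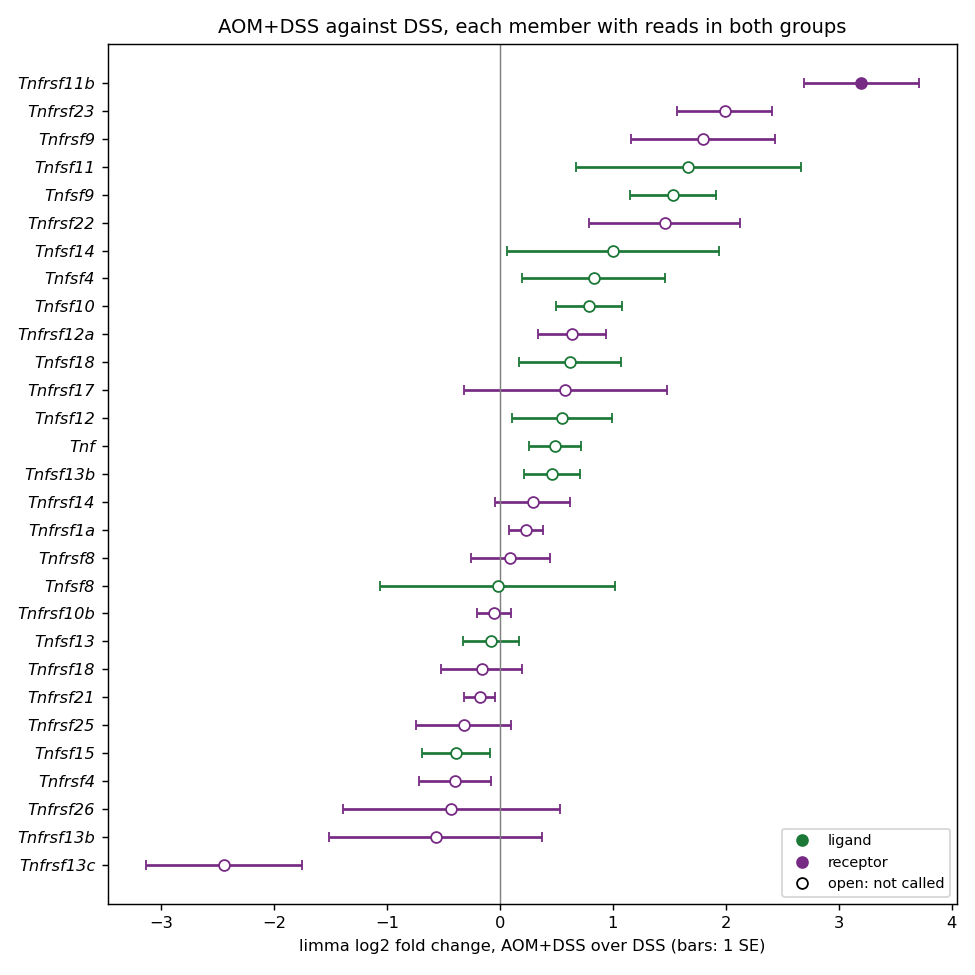
Limma log2 fold change of AOM+DSS over DSS (x axis) for the 29 members with a value in every library, with bars of 1 SE, ligands in green and receptors in purple, filled where called. Tnfrsf11b, at 3.20, is the filled point, and Tnfrsf13c has the lowest value, -2.44.

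Levels between genes were compared as normalized reads per kilobase of transcript. Tnfrsf1a had the highest mean in all 3 groups. In control it stood at 691 ± 107 (SD, n = 3), followed by Tnfrsf11a at 492 ± 31.7, Tnfrsf21 at 431 ± 26.3 and Tnfrsf1b at 186 ± 28.4, and then by Tnfsf13 at 121 ± 25.1, Tnfrsf12a at 95.8 ± 22.6, Tnfrsf14 at 83.2 ± 28.8, Tnfrsf10b at 80.1 ± 19.2 and Tnfsf10 at 76.6 ± 33.0. Neighbours differed by more than their SDs added together down to Tnfsf13, and by less from Tnfsf13 to Tnfsf10. In AOM+DSS the order was Tnfrsf1a at 1097 ± 227, Tnfrsf1b at 920 ± 295, Tnfrsf12a at 621 ± 246, Tnfrsf11b at 495 ± 259, Tnfrsf21 at 491 ± 12, Tnfrsf11a at 404 ± 84.4 and Tnf at 398 ± 131 (SD, n = 3). All of these neighbours differed by less than their SDs added together, so the order of neighbours is not resolved. Tnfrsf1a lay above each of Tnfrsf12a, Tnfrsf11b, Tnfrsf21, Tnfrsf11a and Tnf by more than that, for Tnfrsf12a only narrowly. Tnfrsf11b stood at 4.95 ± 2.12 in control (SD, n = 3).

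**Figure D5:**
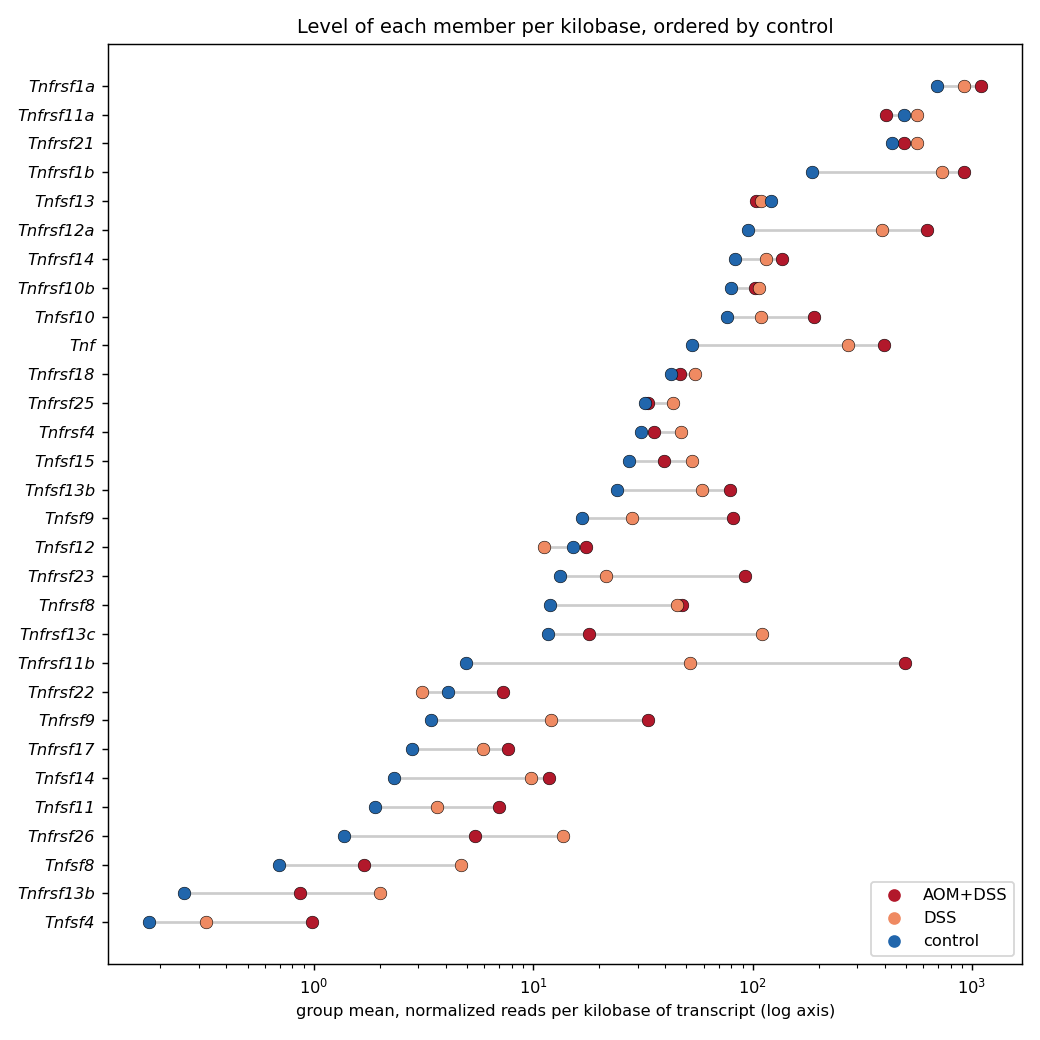
Group mean of each member in normalized reads per kilobase of transcript (x axis, log scale), ordered by the control level, with AOM+DSS in dark red, DSS in orange and control in blue. Tnfsf18 is left out because its control mean is 0. Tnfrsf11b spans the widest range, with 495 in AOM+DSS, 51.7 in DSS and 4.95 in control.

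Other genes of the pathway were read from lists. Of 17 genes that TNF is known to induce, 13 were called higher in AOM+DSS and 8 in DSS, where 5.54% and 2.61% of all genes were. In either comparison 0 were lower, and their median log2 folds were 2.67 and 1.68 in the authors' deposited tables, against 0.02 over all genes. The list was chosen with earlier results of these data known, and whether TNF induced these genes here was not tested. In AOM+DSS the called genes included the chemokine Cxcl10 (log2 3.34, DESeq adjusted p = 0.000172), the adhesion molecule Icam1 (log2 3.12, 0.000199) and the monocyte chemokine Ccl2 (log2 4.30, 0.000297) in the authors' deposited table. In DSS they included Ccl20, which attracts lymphocytes (log2 2.81, DESeq adjusted p = 1.36e-05), Icam1 (log2 2.35, 0.00821) and the NF-kB inhibitor Nfkbie (log2 1.77, 0.00932).

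Among signalling genes between receptor and nucleus, 1 of 26 adaptors and kinases was called higher in each comparison, where the shares over all genes were 5.54% in AOM+DSS and 2.61% in DSS. These were the initiator caspase Casp8 in AOM+DSS (fold 1.62, DESeq adjusted p = 0.0146) and the adaptor Traf3 in DSS (fold 1.71, DESeq adjusted p = 0.00788) in the authors' deposited tables. Of the 5 NF-kB subunits, Nfkb2 was called in AOM+DSS (log2 0.79, DESeq adjusted p = 0.00672) and in DSS (log2 1.08, DESeq adjusted p = 5.09e-05), and Rel in AOM+DSS (fold 5.67, DESeq adjusted p = 0.0372). Of 7 enzymes and helpers that release ligands from membranes, the intramembrane protease Sppl2a was called in AOM+DSS (fold 2.55, DESeq adjusted p = 2.37e-08) and in DSS (fold 2.10, DESeq adjusted p = 1.25e-05), and the sheddase Adam10 in AOM+DSS (fold 1.87, DESeq adjusted p = 0.00057).

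Among superfamily members under other symbols, 0 of 6 ligands were called in either comparison. Ltb, a subunit of membrane lymphotoxin, had means of 163 normalized reads in AOM+DSS, 487 in DSS and 64.3 in control in the authors' deposited tables. Of 8 such receptors, 0 were called in AOM+DSS and 1 in DSS, Cd40, a receptor of antigen-presenting cells (log2 2.19, DESeq adjusted p = 0.0471).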

How the data were processed

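Poly(A) RNA of 10 libraries in 3 groups was sequenced with an unstranded TruSeq kit, per the labels' protocols. The submitters' processing notes name TopHat2 2.0, the mm9 build and DESeq; the sources used here do not give the read counter, the annotation or the DESeq version. The 2 deposited tables hold, per the file headers, signal values that are means of normalized read counts (scaled by each library's size factor), the ratio of treated to control mean as fold change, its log2, and p-values with a Benjamini-Hochberg adjustment. The header of the AOM+DSS table names 4 treated replicates and the labels 3, and its means resolve into 3 libraries.

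The printed means have up to 15 digits and were resolved into whole reads for each library: a value was kept where exactly 1 combination of whole reads matched the printed columns within rounding (99.8% of genes in AOM+DSS, 90.7% in DSS, 99.4% in control). As the tables hold no counts per library, no count test was run. Limma 3.58.1 (R 4.3.3, trend) was fitted over all genes recovered in both groups, on log2(normalized reads + 1). It served for AOM+DSS against DSS and as an alternative elsewhere; both programs were tested on simulated data. No 2 libraries of a group agreed within sampling noise (chi-square per degree of freedom 4.27 to 68.3).

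The members and gene lists were chosen with earlier results of these data known. Members were described per library where called in at least 1 comparison; of the rest, those with the highest means, that called by limma alone, and others chosen after their values were seen were named. From lists, up to 3 called genes of lowest adjusted p were named, or the 2 of highest mean, of which some are not shown. Lengths, overlaps and shared 50-base stretches came from GENCODE M21 and promoters from RefSeq, both GRCm38 and not mm9. Alternatives were other thresholds, filters, pseudocounts, size factors and left-out libraries.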

Additional observations from a re-analysis of the deposited data

Results flagged for a closer look

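In 3 members, DSS library a lay apart from the other 3 DSS libraries, by a gap beyond Dixon's 95% critical value for 4 samples. They were Tnfrsf13c at 537.5 normalized reads, Tnfrsf26 at 130.4 and Tnfsf8 at 60.86. Chance gives such a gap in about 1 in 20 groups only where values are normally distributed, and 29 members were checked in DSS. The criterion was applied to normalized reads, whose distribution was not tested, so the chance rate here is not known. The gaps were not tested on the log2 scale used for limma. Tnfsf4 at 2.371 and Tnfsf18 at 0.7904 meet the same criterion by construction, since the other DSS libraries are at 0 and these values rest on 3 reads and 1 read. DSS library a had the highest sum of B and plasma cell markers (11239) and of T and NK cell markers (6395), and the part of these cells was not tested.

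Tnfrsf11b differed between the treatments: it was higher in AOM+DSS than in DSS by 3.20 on the log2 scale in limma (SE 0.51, adjusted p = 0.0156), with all 3 AOM+DSS libraries above all 4 DSS libraries.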

How the results depend on the processing

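The count of members called in AOM+DSS against control was 11, and ranged over 6 to 15 of 31 when limma left out 1 library at a time: 6 without control library a or AOM+DSS library a, 7 without control library c, 15 without control library b. Over all genes, limma called 2.93% without control library a, 3.97% without AOM+DSS library a, 3.92% without control library c and 23.6% without control library b, against 17.3% with all libraries. In DSS against control it was 6 of 31, and 2 to 6 of 29 with a library left out: 2 without control library a or c, 3 without DSS library c, when limma called 0.896%, 0.941% and 4.81% of all genes, against 5.5% with all libraries. Between AOM+DSS and DSS it was 1, and 0 to 3 with a library left out (0 without AOM+DSS library a or b, 3 without c, with 0.46%, 0.53% and 3.72% of all genes called, against 2.26%). It was 2 with size factors computed again, when limma called 2.23% of all genes. At an adjusted p under 0.01 it was 0, and the share over all genes at that threshold is not given here. The cause was not tested. The other alternatives (limma in place of the authors' test, a stricter threshold, a mean of at least 10, a pseudocount of 10, new size factors) kept both counts against control within 1.5 times. With a mean of at least 10, the authors' test called 8 of 26 members in DSS, the 6 plus Tnfsf15 and Tnfrsf9. The adjustment then covers fewer genes, and the share over all genes under this filter is not given here, so the gain cannot be set against it. For 12 members (the 11 called and Tnfrsf13c), 341 alternative log2 folds had a test: 300 kept direction and side of the threshold, 30 lost a call, 7 gained one and 4 changed sign. Those 4 are Tnfrsf8 between AOM+DSS and DSS, an uncalled 0.09 that ranged over -0.10 to 0.39 with a library left out. Of 23 values with 10 added to both means, which have no test, 22 moved by less than the spread between libraries and 1 by more (Tnfsf9, 1.86 in AOM+DSS). No paired analysis was possible because the tables carry no replicate numbers. Highly expressed genes without a value per DSS library, Tnfrsf1b and Tnfrsf11a among them, have no test between the treatments.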
